A study of Mus musculus with 4 samples.

Results

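The Pax8-positive supporting-like cells of the fetal mouse gonad are described here, a small class given the working name rete type. A cell was counted as a member when it had a unique molecular identifier (UMI) of Pax8 and of at least 2 of Rnase12, Egfl6, Nell1, Lypd1 and Greb1, which are called the rete-type genes below. It also needed at least 2 of the supporting cell genes Fst, Wnt4, Wnt6 and Runx1, and no more than 1 of the germ cell genes Dazl, Ddx4, Dnd1, Mael, Dppa5a and Mov10l1. By this rule 418 of 19387 cells were members, or 109 at E11.5 (days of embryonic development) and 119, 139 and 51 in the libraries taken 1, 2 and 3 days later (E12.5, E13.5, then E14.5, an order kept below as stage order). They came from dissociated gonads of XX embryos of the C57BL/6 strain, with no genetic change or treatment named in the labels, and each stage was 1 droplet library (10x Chromium, 3′ chemistry V2). The labels do not say how many embryos or litters were pooled. Within each library the members were set against comparators, the cells with at least 3 of Fst, Wnt4, Wnt6, Irx3 and Runx1 and no Pax8 UMI, which numbered 1930, 2213, 1830 and 1058 in stage order.

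In the XX gonad the supporting lineage gives rise to the granulosa cells that enclose the oocytes. The rete ovarii is a set of epithelial cords and tubules that join the ovary to the mesonephros, the transient embryonic kidney. Pax8 encodes a paired box transcription factor known from the thyroid, the kidney and the ducts of the reproductive tract, and it is also a marker of the rete. Stra6 encodes the membrane receptor that takes retinol from retinol binding protein into cells, and retinoic acid made from retinol is the signal associated with entry into meiosis in fetal germ cells.

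Stage and library cannot be told apart, because each stage had 1 library, and no p-value is given. Levels are CPM values (a gene's UMIs per 1000000 UMIs), with UMIs summed over the cells of a class in a library. Ranges given in brackets are 95% intervals for counting error alone, by the exact Clopper-Pearson method for shares and the exact Poisson method for summed UMIs. All cells together held 80377418, 78223391, 69458291 and 72506090 UMIs in stage order, and the members' part of these was 1563432, 1720508, 1942140 and 754107. The median member had 13012, 12195, 10550 and 12566 UMIs and the median comparator 14105, 11983, 11186.5 and 10637.5. A doublet score marked 7, 9, 2 and 2 members, or 6.422%, 7.563%, 1.439% and 3.922%, and 5.078%, 6.733%, 4.426% and 6.994% of the comparators. A set of 175 barcodes occurred in more than 1 library, 6 members carried one of them, and 0 pairs of members shared one.

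In stage order the members made up 2.217% (1.824 to 2.669), 2.458% (2.04 to 2.934), 2.871% (2.419 to 3.381) and 1.065% (0.7942 to 1.398) of a library's cells. The share at E14.5 lay below those of the earlier libraries, whose intervals overlapped. Germ cells took a growing part of the libraries, and cells with more than 1 germ cell gene were 7.852% of all cells at E11.5 and 55.55% at E14.5. Against members and comparators alone, the members were 5.346%, 5.103%, 7.059% and 4.599% in stage order. On this base the E14.5 interval (3.443 to 6.002) overlapped those at E11.5 (4.41 to 6.413) and E12.5 (4.245 to 6.075) and, narrowly, that at E13.5 (5.967 to 8.281). Members are limited in germ cell genes and these comparators are not. Comparators with at most 1 such gene numbered 1867, 2106, 1715 and 852. Those left out were 3.264% of the comparators at E11.5 and 19.47% at E14.5, so this base lowers the E14.5 share the most.

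Pax8 was seen in 1459 cells, of which the members were 28.65%. Of the Pax8 cells, 218 had more than 1 germ cell gene, 792 had fewer than 2 rete-type genes and 31 had fewer than 2 supporting genes. A single Pax8 UMI was the evidence in 220 members, and 198 had at least 2, with 12 in the highest. Just outside the rule stood 338 cells that lacked only the second rete-type gene, 150, 85, 74 and 29 in stage order. On another side of it stood 679 cells that met every criterion but had no Pax8 UMI, 111, 226, 240 and 102, and those of them with enough supporting genes are also comparators. These 679 cells had a median of 12154 UMIs, and the members over all libraries 12168.5.

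The genes of the rule chose the members, so their levels are a description. Pax8 stood at 130.5, 129.6, 125.6 and 126.0 CPM in the members of the 4 libraries, a nearly level course. Rnase12, of the ribonuclease A family, stood at 40.3, 54.64, 56.64 and 33.15 CPM in members and at no more than 0.7944 CPM in comparators. Greb1, known as an estrogen-induced gene, stood at 156.7, 149.4, 175.6 and 149.8 CPM in members and at no more than 37.34 CPM in comparators. Other rete-type genes differed between the stages. Nell1, which encodes a secreted protein, stood at 19.19 CPM in E11.5 members and at 43.01, 65.39 and 74.26 CPM in the later libraries. Lypd1, which encodes a membrane-anchored protein, went from 10.87 to 34.87, 49.94 and 34.48 CPM. Egfl6, which encodes a secreted protein with EGF repeats, stood at 122.2, 161.0, 140.6 and 94.15 CPM in members, while comparators went from 8.814 to 25.72, 31.23 and 33.65 CPM, so the 2 classes were nearest at E14.5.

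Of the supporting cell genes, Fst, which encodes the activin antagonist follistatin, stood at 250.7, 269.1, 334.2 and 206.9 CPM in members and at 255.5, 248.7, 306.6 and 161.9 CPM in comparators. Wnt4, a secreted signal needed for ovarian development, was higher in members in each library, with 452.8, 424.3, 425.3 and 274.5 CPM against 271.8, 229.9, 246.9 and 143.8, less than a ratio of 2. Irx3, a homeobox gene of pre-granulosa cells, entered the choice of comparators but not of members. It stood at 19.83, 153.4, 174.0 and 140.6 CPM in members and at 65.04, 290.2, 381.4 and 301.2 CPM in comparators. The choice of comparators by Irx3 fixes part of that difference.

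The promoter regions of Pax8, Stra6 and Rnase4 are shown because Pax8 defines the class, Stra6 is the marker of the class that the rule did not use, and Rnase4 lies beside the rule gene Rnase12. Each is the 250 bases before a RefSeq start in GRCm38.p6, written on the strand of the gene, with the CCAAT box in capitals. For Pax8 and Rnase4 this is the start of the gene span. For Stra6 it is a start inside the gene, whose span begins at 58063793.
Pax8 promoter, chr2:24475600-24475849, minus strand: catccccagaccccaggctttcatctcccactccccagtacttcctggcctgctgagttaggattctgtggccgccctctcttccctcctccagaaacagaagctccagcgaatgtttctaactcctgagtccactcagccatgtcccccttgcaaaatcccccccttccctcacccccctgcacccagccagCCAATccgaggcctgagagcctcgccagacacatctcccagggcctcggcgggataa
Stra6 promoter, chr9:58128838-58129087, plus strand: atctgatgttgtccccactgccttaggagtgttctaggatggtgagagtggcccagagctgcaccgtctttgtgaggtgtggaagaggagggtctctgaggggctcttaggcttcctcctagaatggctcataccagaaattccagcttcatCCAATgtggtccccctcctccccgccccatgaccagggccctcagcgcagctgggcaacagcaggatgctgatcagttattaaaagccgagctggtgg
Rnase4 promoter, chr14:51090827-51091076, plus strand: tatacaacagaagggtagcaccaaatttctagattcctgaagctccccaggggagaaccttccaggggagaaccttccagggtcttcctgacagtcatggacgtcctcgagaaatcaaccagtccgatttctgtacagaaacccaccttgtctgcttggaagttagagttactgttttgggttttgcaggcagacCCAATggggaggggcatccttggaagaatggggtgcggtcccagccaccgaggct
None of the windows overlapped an exon in GENCODE vM21. The Pax8 window lay within Gm13415, and the Stra6 window within the span of a longer Stra6 transcript. Each window held 1 CCAAT on the gene's own strand, 57, 98 and 55 bases before the start in the order shown. CCAAT in either orientation was found in 33.85% of 32851 promoters of this length. The letters AACAAT, the core bound by SOX proteins, and AGGTCA, the half-site of nuclear receptors, were searched on both strands and were in none of the 3 windows, against 9.424% and 14.02% of all promoters. A match is a description of the sequence and not a bound site.

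Of 7 genes proposed as markers of the class, Stra6 was the only one left out of the rule, and it was higher in the members of every library. The class was chosen with earlier results of these data known, so this is a description and not an independent check. Stra6 lies on chromosome 9 from 58063793 to 58154004 in GRCm38.p6. It stood at 26.86, 33.13, 54.58 and 45.09 CPM in stage order. The comparators had 2.471, 3.93, 5.812 and 3.692 CPM. Members and comparators did not overlap, and the mean log2 ratio was 3.35 ± 0.24 (SD over 4 libraries). With each cell thinned to 5000 UMIs, Stra6 was detected in 11.01% (5.82 to 18.44), 10.92% (5.947 to 17.96), 22.3% (15.68 to 30.14) and 13.73% (5.701 to 26.26) of the members. Unthinned, the shares were 24.77%, 26.89%, 42.45% and 33.33%. Comparators had thinned shares of 0.9845%, 1.988%, 3.06% and 1.796%. Cells of neither class with at least 5 of the 8 endothelial genes, which should lack Stra6, had thinned shares of 0.6369%, 0.5319%, 0% and 0%, at median depths of 16758, 15214, 10769 and 11697.5 UMIs. The last 2 shares came from 102 and 46 cells and allow up to 3.552% and 7.706%.

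A gene was called in a library when it had at least 30 UMIs over both classes, at least 20 CPM in the higher class, a ratio of 2 or more, and Poisson intervals without overlap. It was called over the libraries when this held in the same direction in at least 3 libraries and in the other direction in none. Among 5754 genes tested outside the rule, 95 were higher in members (1.65%) and 30 lower (0.521%), and 47 and 9 of them were called in all 4 libraries. The median of the mean log2 ratio over these tested genes was 0.07. The counts and medians of each gene list below are to be read beside these shares and this median. In single libraries 2.93%, 2.5%, 2.33% and 5.3% of the genes tested were called higher and 1.42%, 1.12%, 1.27% and 2.8% lower. The E14.5 library, with the fewest members, had the largest shares in both directions. The members' profile sat slightly above that of the comparators for the typical gene, with a median ratio of 0.0696, 0.08257, 0.1019 and 0.1724 on the log2 scale in stage order. Scaled to that median, 71 genes were called higher and 44 lower.

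Transcription factor genes called higher included Sox9, Tbx2 and Maf. Sox9 (chromosome 11, 112782210 to 112787757), the factor that directs Sertoli cell fate in the testis and is also active in many ducts, stood at 48.61, 61.61, 52.52 and 42.43 CPM in members. In comparators it stood at 12.32, 8.087, 11.87 and 5.324 CPM, a mean log2 ratio of 2.52 ± 0.53 (SD over 4 libraries). After thinning, 21.1%, 23.53%, 24.46% and 25.49% of members had a Sox9 UMI, against 5.544%, 4.248%, 5.082% and 2.836% of comparators and 1.274%, 1.596%, 1.961% and 4.348% of the cells with endothelial markers. The members' shares were within 5 percentage points of each other. Amh, which encodes anti-Müllerian hormone, had at most 1.279 CPM in members, and Sox8 at most 2.325 CPM. Of the 12 Sertoli genes listed, 2 had enough UMIs, 1 was called higher (Sox9) and 0 lower. The other, Gadd45g, stood at 483.6, 202.8, 120.5 and 147.2 CPM in members and at 869.2, 173.1, 115.8 and 92.93 CPM in comparators.

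Tbx2, a T-box repressor, had the steadiest ratio of the 12 highest genes, at 56.93, 68.58, 84.44 and 59.67 CPM in members against a mean of 10.96 CPM over the comparators of the 4 libraries (mean log2 ratio 2.62 ± 0.08, SD over 4 libraries). Maf, a leucine zipper factor that the list assigns to the interstitium, stood at 96.58, 95.32, 128.7 and 122.0 CPM against 28.24, 33.32, 50.63 and 44.51. Both genes were called in each library.

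**Figure D1:**
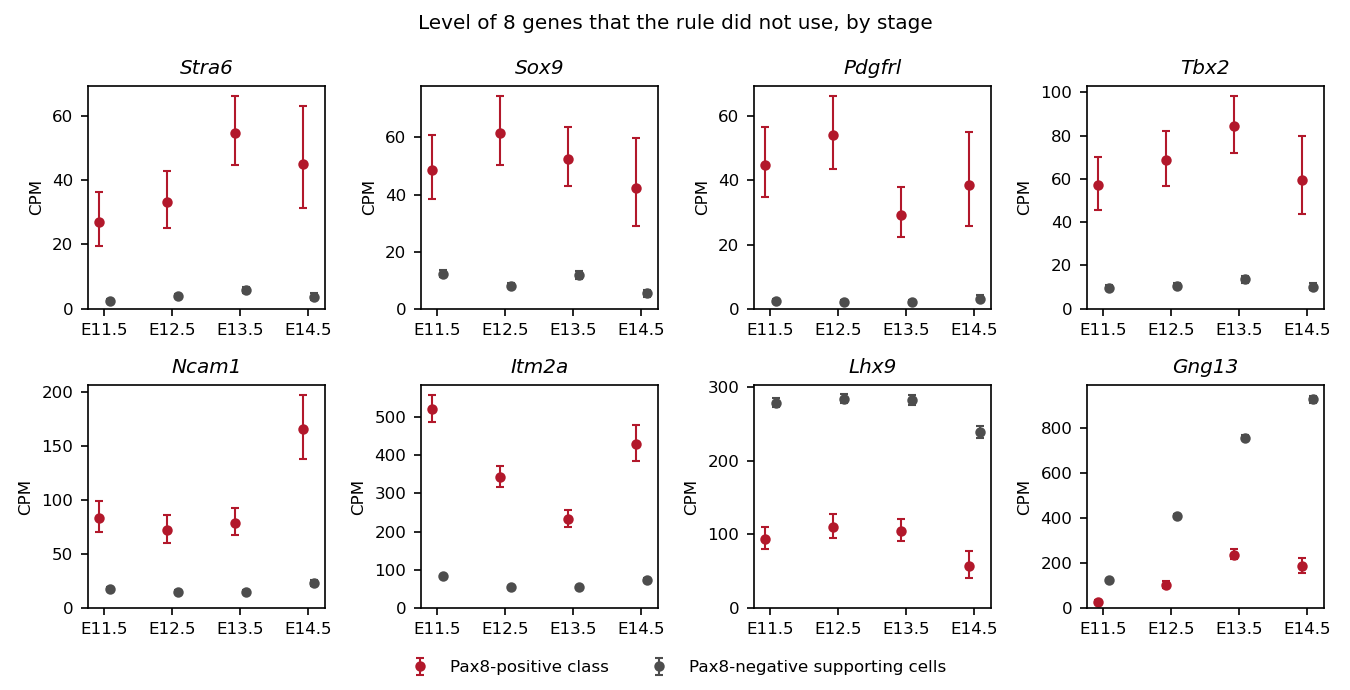
CPM of 8 genes that the rule did not use, by stage, in the Pax8-positive class (red) and the Pax8-negative supporting cells (grey), with exact Poisson 95% intervals. Stra6 and Sox9 lie above the comparators at all 4 stages, and Lhx9 and Gng13 lie below them at all 4 stages.

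Pdgfrl (chromosome 8, 40926233 to 40990782), which encodes a secreted protein like the PDGF receptor, had the highest mean ratio of the genes outside the rule that were called over the libraries. It stood at 44.77, 54.05, 29.35 and 38.46 CPM in members and at 2.437, 2.111, 1.965 and 3.124 CPM in comparators, a mean log2 ratio of 4.10 ± 0.45 (SD over 4 libraries). In cells with endothelial markers 0 had a Pdgfrl UMI after thinning in each library. The adhesion molecule gene Ncam1 stood at 83.79, 72.65, 79.29 and 165.8 CPM against 17.49, 15.17, 14.93 and 22.86, and its E14.5 value lay above the others. Itm2a, which encodes a type II membrane protein, stood at 520.6, 342.9, 232.7 and 429.6 CPM against 83.83, 54.6, 54.19 and 73.19. Tspan13, a tetraspanin gene, and Cd83, known from dendritic cells, had mean log2 ratios of 2.59 ± 0.23 and 2.62 ± 0.42 (SD over 4 libraries). Slc25a21, which encodes a mitochondrial oxodicarboxylate carrier, and Jakmip1, whose product binds Janus kinases and microtubules, had 2.96 ± 0.50 and 2.53 ± 0.52. Plac8 had a ratio that differed more between the stages, with members at 304.5, 220.3, 141.6 and 70.28 CPM and comparators between 25.13 and 39.85 CPM.

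Rnase4, a secreted ribonuclease gene, was among the 12 highest and stood at 55.01, 79.05, 49.94 and 47.74 CPM in members against 8.246, 6.95, 6.481 and 7.312 CPM in comparators (mean log2 ratio 2.98 ± 0.37, SD over 4 libraries). In GRCm38.p6 it lies on chromosome 14 from 51091077 to 51106151, 33834 bases from the rule gene Rnase12 at 51056698 to 51057242. Ang, the angiogenin gene, shares the start of Rnase4, and reads of overlapping genes cannot be told apart here. It was listed at 14.07, 11.04, 10.81 and 5.304 CPM in members and met the call in 0 libraries. The next genes of the cluster, Rnase6 and Rnase1, had at most 1.326 and 5.304 CPM in members.

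Secreted factors and their receptors were also among the genes called higher, with names chosen here after their values were seen. Tgfb2, a TGF-beta ligand, stood at 23.67, 23.83, 44.28 and 71.61 CPM against 5.275, 6.333, 8.153 and 13.13. The ligand gene Pdgfc stood at 85.71, 52.89, 54.06 and 74.26 CPM against 23.84, 12.89, 12.33 and 10.72. Sema3c, a secreted guidance cue, stood at 135.6, 63.93, 75.17 and 30.5 CPM against 17.03, 13.71, 14.09 and 12.14. Nrp1, a receptor of class 3 semaphorins, stood at 126.0, 102.3, 99.37 and 54.37 CPM against 37.63, 24.68, 20.49 and 15.26. Sema3c and Nrp1 were both higher in members, and both had their lowest level at E14.5 in members and in comparators alike. Whether the ligand and the receptor act together was not tested. The insulin-like growth factor binding proteins Igfbp5 and Igfbp6 had mean log2 ratios of 1.77 ± 0.26 and 1.98 ± 0.21, and the gp130 receptor gene Il6st 1.93 ± 0.44 (SD over 4 libraries).

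**Figure D2:**
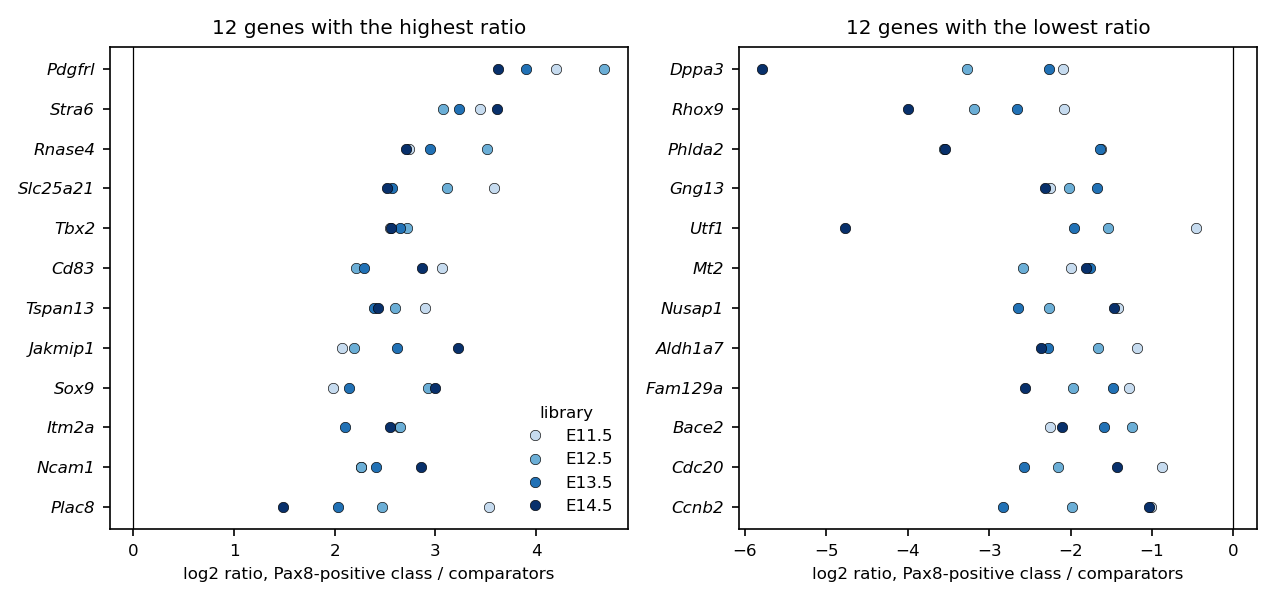
Log2 ratio of the Pax8-positive class over the comparators in each library for the 12 genes with the highest and the 12 with the lowest mean ratio among those called over the libraries. Each point is 1 library. The points of Tbx2 lie close together, and those of Dppa3 and Utf1 are the most spread, with E14.5 lowest.

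Of the 15 retinoic acid genes in the table, 8 had enough UMIs, 2 were called higher and 0 lower, and their median log2 ratio was 0.49 against 0.07 for all genes tested. The 2 were Stra6 and Aldh1a3. Aldh1a3, one of the enzymes that make retinoic acid, stood at 16.63, 25.57, 43.25 and 37.13 CPM in members against 7.812, 6.171, 11.41 and 6.034. The other enzymes of this step had other patterns. Aldh1a2 stood at 45.41, 49.4, 50.46 and 66.3 CPM against 31.88, 34.85, 50.55 and 67.09, and Aldh1a1 at 19.83, 20.92, 37.59 and 61.0 CPM against 20, 31.67, 77.93 and 147.4. Neither was called over the libraries, and Aldh1a1 was called lower in 2 of them. Rdh10, which makes retinal from retinol, stood at 19.19, 21.51, 26.77 and 30.5 CPM against 6.444, 12.57, 16.77 and 15.97. Aldh1a7, a relative of Aldh1a1 with which reads could be shared, was among the 12 lowest genes, with a mean log2 ratio of -1.79 ± 0.54 (SD over 4 libraries).

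Among the factors that specify the gonad, Lhx9 was the one called. Of 16 gonadal transcription factor genes, 10 had enough UMIs, 0 were called higher and 1 lower, with a median log2 ratio of 0.06. Nr5a1, which encodes the steroidogenic factor of gonad and adrenal, stood at 49.25, 62.19, 66.94 and 30.5 CPM in members against 74.35, 62.55, 75.38 and 47.14. Wt1, Gata4 and Emx2 had mean log2 ratios of -0.11 ± 0.13, 0.06 ± 0.24 and 0.14 ± 0.23 (SD over 4 libraries). Lhx9, a LIM homeobox gene needed for the gonad to form, stood at 94.02, 110.4, 105.0 and 57.02 CPM in members against 279.1, 284.2, 282.8 and 239.2, and it was called lower in each library (mean log2 ratio -1.60 ± 0.31). Nr0b1 was higher in each library, with a mean log2 ratio of 0.89 ± 0.17, but called in 1. Dmrt1 was low in members, at 14.07, 5.812 and 2.06 CPM and then at 0 UMIs at E14.5, where the floor of 3 UMIs is 3.978 CPM.

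Of 14 pre-granulosa genes, 10 had enough UMIs, 0 were called higher and 1 lower, with a median log2 ratio of -0.13. The gene called lower was Bmp2, a BMP ligand gene, at 22.39, 42.43, 21.11 and 14.59 CPM against 60.83, 82.43, 67.19 and 79.37. Rspo1, which amplifies WNT signalling, stood at 85.07, 94.16, 130.3 and 120.7 CPM against 108.1, 91.43, 150.6 and 111.7. Kitl, the KIT ligand for germ cells, stood at 113.9, 273.8, 201.8 and 188.3 CPM against 229.0, 382.1, 258.7 and 277.4, lower in each library but called in 1. Axin2 and Nkd1, targets of canonical WNT signalling, had mean log2 ratios of 1.09 ± 0.40 and 0.92 ± 0.28 (SD over 4 libraries), and each was called in 1 library. Foxl2, the factor of granulosa identity, was near 0 in both classes, with at most 0.6396 CPM in members and 0.2509 in comparators. Amhr2, the receptor of anti-Müllerian hormone, stood at 358.8, 255.7, 196.2 and 278.5 CPM against 350.6, 209.2, 217.7 and 254.6.

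Gng13, a G protein subunit gene, had the lowest mean ratio of the genes outside the rule that were called in all 4 libraries, at -2.06 ± 0.29 on the log2 scale (SD over 4 libraries). It stood at 26.22, 101.7, 237.9 and 187.0 CPM in members and at 125.4, 410.8, 758.1 and 930.3 CPM in comparators, so that both classes had more of it at the later stages. The metallothionein genes Mt2 and Mt1 were called lower in each library, with mean log2 ratios of -2.01 ± 0.37 and -1.46 ± 0.22 (SD over 4 libraries). Fam129a and Bace2 were called lower in 3 libraries, with -1.75 ± 0.54 and -1.72 ± 0.43.

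Genes of pluripotent and germ cells, Dppa3, Rhox9 and Utf1, together with Phlda2, were also among the 12 lowest. The rule for members limits germ cell genes and that for comparators does not, and 3.264%, 4.835%, 6.284% and 19.47% of the comparators had more than 1 of them. Dppa3 stood at 3.198, 4.069, 4.634 and 1.326 CPM in members and at 13.69, 39.4, 22.29 and 73.19 CPM in comparators. Without the comparators that had more than 1 germ cell gene, it stood in comparators at 3.291, 3.665, 5.034 and 8.185 CPM, levels close to those of the members at the first 3 stages. Whether the remaining germ cell RNA comes from droplets with germ cells or from free RNA was not tested. Rhox9 went likewise to 3.711, 4.128, 7.271 and 8.867 CPM, against 3.198, 5.231, 4.634 and 5.304 in members. Dppa3, Rhox9, Utf1 and Phlda2 all lost their calls there. With these cells left out 82 genes were called higher and 25 lower, and Lhx9, Bmp2, Gng13, Mt1 and Mt2 remained among the 25.

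Some genes of mitosis were called lower in members. Of 16 genes of G2 and mitosis, 12 had enough UMIs, 0 were called higher and 6 lower, and their median log2 ratio was -1.32. Over all genes tested outside the rule 0.521% were called lower, and the median log2 ratio was 0.07. The 6 were Nusap1, Cdc20, Ccnb2, Ccnb1, Cenpf and Top2a. Ccnb1, which encodes cyclin B1, stood at 30.06, 11.62, 8.753 and 15.91 CPM in members against 60.43, 42.29, 29.27 and 57.93. The summed level of the list was 408.1, 243.5, 151.4 and 550.3 CPM in members and 701.1, 783.8, 478.8 and 1063.0 CPM in comparators. Without the comparators that had more than 1 germ cell gene it was 677.4, 675.2, 422.3 and 920.3 CPM, still above the members in each library. With those comparators left out 3 genes of the list were called lower (Ccnb1, Cdc20 and Nusap1), with called doublets left out 10, and with both left out 10. Of 12 DNA replication genes with enough UMIs, 0 were called in either direction, and their median log2 ratio was -0.50. Cdkn1a, which encodes the cell cycle inhibitor p21, was called higher, at 179.1, 168.0, 161.7 and 275.8 CPM against 109.9, 54.73, 46.08 and 55.94.

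The collagen VI genes Col6a1 and Col6a2, outside the lists used here, and Hspg2, which encodes the basement membrane proteoglycan perlecan, were called higher. Col6a1 stood at 21.11, 41.27, 60.76 and 164.4 CPM in members against 9.548, 14.97, 24.58 and 48.49, and Hspg2 at 40.94, 45.34, 52.52 and 45.09 CPM against 14.29, 17.64, 22.37 and 25.2. Of 20 basement membrane and integrin genes, 8 had enough UMIs, 1 was called higher and 0 lower, with a median log2 ratio of 0.47. Of the keratin and junction genes 9 had enough UMIs, 1 was called higher (Ncam1) and 0 lower, with a median of -0.53. Krt18, a keratin of simple epithelia, stood at 71.0, 77.3, 74.66 and 49.06 CPM in members against 59.96, 95.65, 112.6 and 168.5, so the classes were close at E11.5 and apart at E14.5. Krt19 stood at 5.757, 15.69, 12.87 and 7.956 CPM against 4.541, 9.289, 20.53 and 76.6. Cldn11, a tight junction gene, went the other way, at 21.11, 15.69, 41.71 and 49.06 CPM against 26.88, 17.25, 12.25 and 6.886.

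In the signalling lists no gene was called over the libraries. Among WNT genes 9 had enough UMIs and their median log2 ratio was 0.36, among BMP and activin genes 9 with 0.42, and among NOTCH genes 4 with 0.10. The BMP targets Id1, Id2 and Id3 were called higher at E11.5 alone, where Id3 stood at 814.9 CPM against 364.6. Dlk1, a non-canonical NOTCH ligand gene, stood at 395.9, 170.3, 71.06 and 167.1 CPM in members against 78.06, 73.21, 81.15 and 100.9, and it was called higher in 2 libraries.

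**Figure D3:**
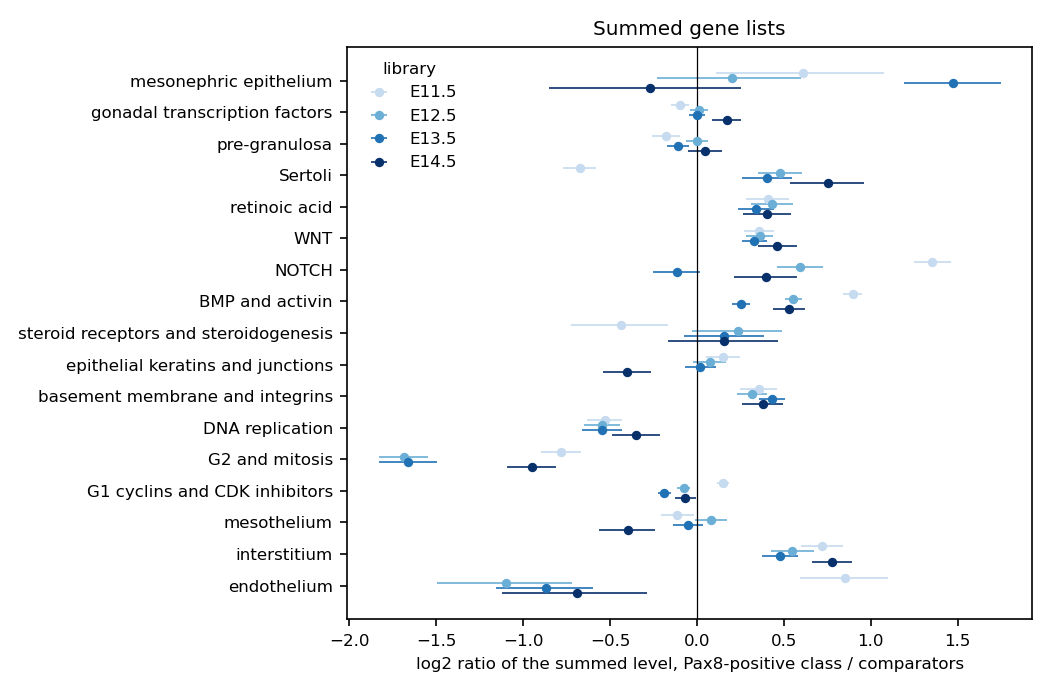
Log2 ratio of the summed level of each gene list, Pax8-positive class over comparators, with exact 95% intervals for counting error, 1 point per library. The points of the G2 and mitosis list lie left of 0 and those of the interstitium list right of 0 in all 4 libraries.

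Markers of mesonephric epithelium were scarce. Of 11 such genes in the table, 0 had enough UMIs in 3 libraries, and their summed level was 25.58, 30.8, 67.97 and 39.78 CPM in members against 16.76, 26.83, 24.46 and 48.06 in comparators. Cdh1, the gene of E-cadherin, had UMIs at E13.5 alone, at 3.089 CPM. Pax2, the relative of Pax8 in the mesonephric tubules and ducts, stood at 5.117, 5.812, 6.179 and 3.978 CPM in members against 1.736, 2.371, 1.798 and 1.207. It was higher in each library but below the minimum for a call. The names Ret, Cdh16 and Lhx1 were chosen after their values were seen. They and Pax2 do not stand for the whole list. Its sum had log2 ratios of 0.61 (0.11 to 1.08), 0.20 (-0.23 to 0.60), 1.47 (1.19 to 1.75) and -0.27 (-0.85 to 0.25) in stage order. In comparators with at most 1 germ cell gene the sum was 15.37, 16.72, 19.48 and 36.74 CPM, below the members in each library. Epcam had 22 UMIs in E11.5 members and 5 in E14.5 members. Between these libraries it fell in members (log2 change -0.98, not called) and rose in comparators (1.14). Ret, the receptor of GDNF, stood at 1.919, 9.881, 22.14 and 17.24 CPM in members against 0.1002, 0.8444, 3.136 and 1.988, and it was called higher at E13.5, where 32 of 139 members had a UMI. Cdh16, the kidney cadherin gene, had 0 UMIs at E11.5 and E12.5, and 5 members had one at E13.5 and 5 at E14.5, when it stood at 4.634 and 9.283 CPM. In comparators it had at most 0.07099 CPM. Lhx1 was found in 2 members, both at E13.5, of which 1 held 12 of the 16 UMIs.

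Interstitial genes had a summed level in members of 384.4, 338.9, 426.3 and 897.8 CPM against 233.1, 231.6, 305.8 and 523.5. Of 15, 5 had enough UMIs, 1 was called higher and 0 lower, and the median log2 ratio was 0.64. Nr2f2, a factor of the interstitium, stood at 87.63, 66.26, 71.06 and 87.52 CPM against 61.83, 43.91, 44.11 and 51.47. Endothelial genes summed to 90.83, 33.71, 57.15 and 67.63 CPM against 50.41, 72.1, 104.5 and 109.1. Immune genes summed to at most 27.85 CPM in members and neural genes to at most 22.54 CPM, and 3 of 11 and 3 of 8 of these genes had 0 UMIs. Of 8 mesothelial genes 3 had enough UMIs, and of 11 steroid genes 1, and 0 of either were called. The part of other cell types' RNA in the differences above was not tested.

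The listed red cell genes, most of them globins, summed to 1209.5, 9747.7, 916.5 and 9529.2 CPM in members. At E12.5 and E14.5, 1 member in each library held most of the globin UMIs. Of 3992 Hba-a1 UMIs in E12.5 members 3810 were in 1 cell (95.44%), and of 1733 at E14.5 1578 were (91.06%). Of 9 red cell genes 7 had enough UMIs, 0 were called higher and 1 lower (Hbb-y), a call lost when called doublets were left out. With at least 2 Pax8 UMIs asked of members, all 7 were called lower. Without cells above 5% globin UMIs 96 genes were called higher and 31 lower.

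The members lay near each other in genes that the rule did not use. Neighbours were taken within each library from 2000 variable genes without any gene of the rule, and the 15 nearest cells of each member were counted. Of these, 28.38%, 33.56%, 37.7% and 33.99% were members, in libraries where members were 2.217%, 2.458%, 2.871% and 1.065% of the cells. Of members and comparators together, members were 5.346%, 5.103%, 7.059% and 4.599%. A further 15.17%, 20.17%, 23.12% and 12.68% of the neighbours met every criterion but had no Pax8 UMI, kinds that were 2.258%, 4.667%, 4.957% and 2.131% of the libraries. Other comparators were 26.36%, 30.2%, 20.43% and 20.39% of the neighbours. Cells of neither class and not just outside the rule were 18.84%, 9.02%, 12.71% and 27.06%. Of the neighbours of the other comparators, 1.185%, 1.341%, 1.297% and 0.9889% were members. Comparators that met every criterion but Pax8 were not among the cells whose neighbours were counted here. Not all members lay together, and 16, 17, 10 and 9 had no member among their 15 nearest cells.

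**Figure D4:**
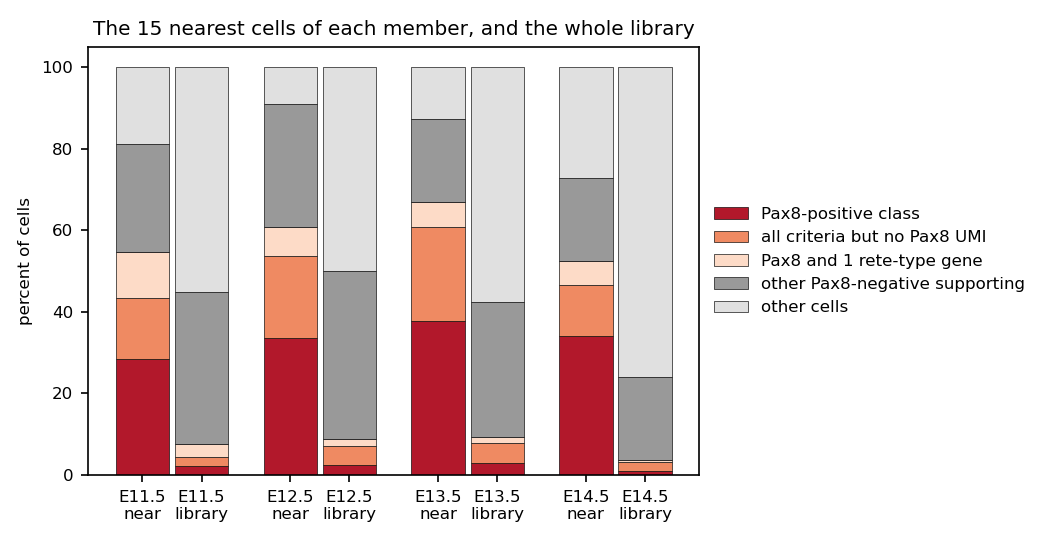
Percent of cells in 5 kinds among the 15 nearest cells of the members (near) and in the whole library, by stage. The red part, the members themselves, is between 28.38% and 37.7% of the near cells and at most 2.871% of a library.

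Genes outside the rule also differed with how many rete-type genes a member had. Members had 2 such genes in 229 cells, 3 in 121 and 4 or 5 in 68, at median depths of 11598, 12384 and 15584.5 UMIs, so cells with more of them were deeper. Summed over the libraries, Stra6 stood at 24.64, 41.69 and 84.28 CPM in these cells, Sox9 at 38.09, 47.64 and 108.1 CPM, and Pdgfrl at 25.28, 45.48 and 85.27 CPM. Lhx9 stood at 105.3, 108.8 and 53.54 CPM. The step from 2 to 4 or 5 genes had the same direction for Stra6 in each library, from 20.04 to 107.0, 18.32 to 63.12, 46.9 to 88.78 and 10.17 to 122.5 CPM. Pdgfrl went from 57.61 to 32.66 CPM at E14.5, against its direction in the other libraries. The cells with 4 or 5 genes numbered 3, 24, 34 and 7.

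Cells just outside the rule lay between both classes. With 1 rete-type gene, Stra6 stood at 11.3 CPM, Sox9 at 16.14 and Lhx9 at 167.5. With all criteria but no Pax8 UMI they stood at 13.17, 21.52 and 213.3 CPM, and in comparators at 3.909, 9.894 and 275.9. Members with 1 Pax8 UMI had 35.16 CPM of Stra6 and 41.35 of Sox9, and those with at least 2 had 45.04 and 64.98. Stra6 and Sox9 were found together in 68 of the 418 members, Stra6 without Sox9 in 67, Sox9 without Stra6 in 87 and neither in 196.

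**Figure D5:**
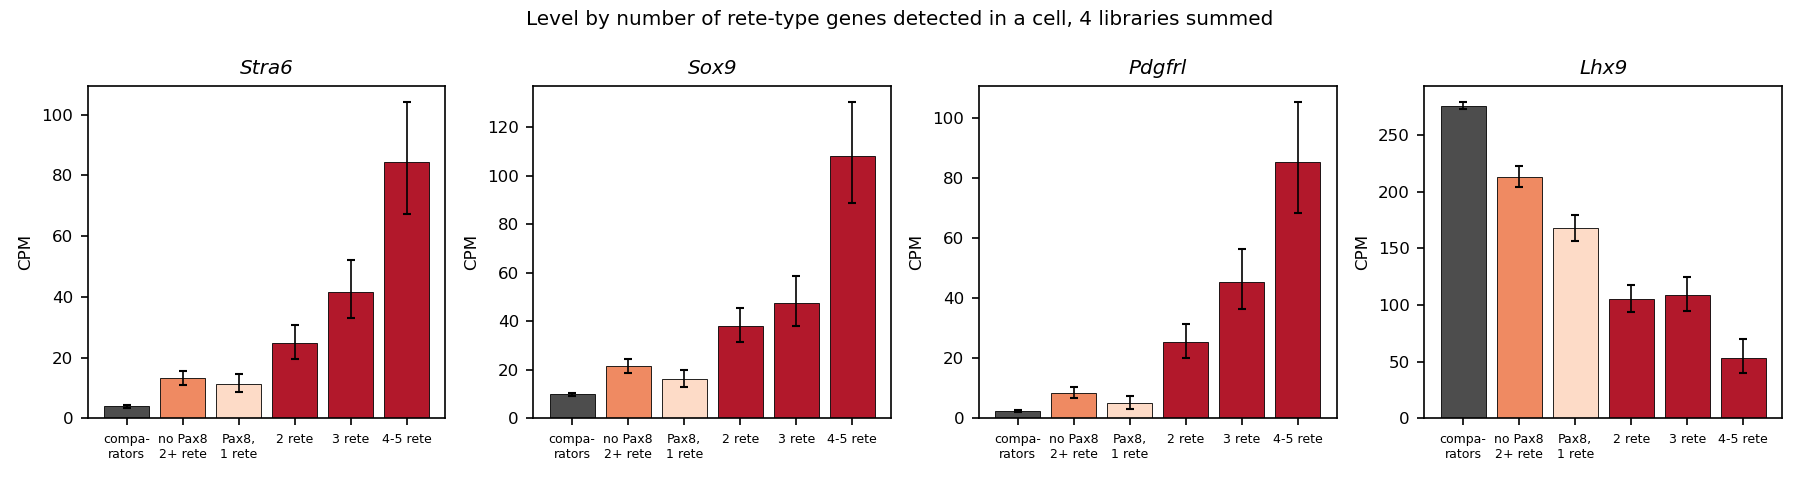
CPM of Stra6, Sox9, Pdgfrl and Lhx9 in cells grouped by Pax8 and by the number of rete-type genes, summed over 4 libraries, with exact Poisson 95% intervals. Bars of comparators are grey, cells just outside the rule orange and members red, and Stra6 goes from 3.909 CPM in comparators to 84.28 CPM in members with 4 or 5 rete-type genes.

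Between E11.5 and E14.5, 330 of 6363 genes tested were higher in the later members (5.19%) and 194 lower (3.05%), and in comparators the shares were 6.22% and 3.92%. Of the members' calls, 126 higher and 104 lower ones were also called in comparators. Some single genes had a large part of their UMIs in 1 cell, and 247 and 186 calls remained when the highest member of each gene was left out.

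Col6a1 and Col6a2 were 7.79-fold and 8.145-fold higher, and in comparators their log2 changes were 2.34 and 3.23. Mgp, which encodes matrix Gla protein, had 3 UMIs at E11.5 and 51 at E14.5, a log2 change of 4.93 against 4.59 in comparators. Thbs1, the thrombospondin gene, had 1 UMI at E11.5 and 49 at E14.5, in 17 of 51 members, and stood at 6.11 and 4.472 CPM in comparators. Acta2, the gene of smooth muscle actin, had 4 and 56 UMIs, and 3 members held 60.71% of the latter. The globin genes Hbb-bs, Hbb-bt and Hba-a2 were also called higher, and the 1 member with the most held 2468 of 2882, 1262 of 1368 and 966 of 1085 UMIs. Irx3, a comparator gene of the rule, was 7.089-fold higher, and Gng13 7.13-fold higher. Aldh1a3 was 2.233-fold higher in members, with a log2 change of 1.16, and -0.37 in comparators. The difference between these changes was not tested.

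Lower in E14.5 members were Plac8 (4.332-fold), Sema3c (4.446-fold), Gadd45g (3.285-fold) and Nr0b1 (3.537-fold), the last an X-linked nuclear receptor gene of the gonad and adrenal. Plac8 had a log2 change of -2.10 in members and -0.07 in comparators, and Nr0b1 -1.80 and -1.76. Sema3c had -2.125 and -0.4853, and Gadd45g -1.71 and -3.225, a larger fall in comparators. Cyp11a1, which encodes the side chain cleavage enzyme of steroid synthesis, had 37 UMIs at E11.5 and 0 at E14.5. Against a floor of 3 UMIs over the E14.5 members it was at least 5.949-fold lower. Comparators also had less Cyp11a1 at E14.5, with a log2 change of -5.60. Utf1, Pglyrp1 and Plac1 had 106, 200 and 137 UMIs at E11.5 and 1, 4 and 3 at E14.5. Their log2 changes were -5.10, -4.43 and -4.24 in members and -1.36, -2.26 and -3.98 in comparators. Etv2 was called lower, with 91 UMIs at E11.5 of which 90 came from 1 member.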

How the data were processed

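Single-cell RNA-seq of XX gonads at 4 stages, 1 library each, was analysed from a table of 19321 genes and 19387 cells. Per the submitters' processing notes, Cell Ranger 2.2.0 and mm10 were used. The authors deposited natural log values, ln(1 + UMIs / cell total × 10000), as read from the values. All 69792436 non-zero values were whole multiples of 1 UMI at a relative tolerance of 1e-06, so UMIs were recovered and summed per class and library. The plan had assumed counts. Cell filters and doublet removal before deposit are not given in the sources used here.

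The classes, the rule of size and the lists are as stated in the text. Members and lists were chosen with earlier results of these data known. Log2 ratios had 0.5 UMI added to each sum. Genes were named by rule: the 12 highest and 12 lowest called, up to 6 per list with the largest mean ratio, a fixed set of markers, and the 8 highest and 8 lowest between E14.5 and E11.5. Other names were chosen after their values were seen. Neighbours used 30 principal components. Doublets were scored as in Scrublet, re-implemented, with 2 simulated doublets per cell and a score limit of 0.18, set after seeing the scores, and were kept in the main results. On simulated members and comparators with 19321 genes, of which 5436 met the minimums, the rule found 100 of 100 genes raised 4-fold and 95 of 100 lowered 4-fold, and called 0 unchanged genes. Each simulated library drew Poisson counts from the levels of its own comparators, with no spread between cells. The intervals of the rule assume the same, so the 0 false calls do not cover genes whose UMIs lie in few cells. Python 3.11.15, numpy 2.4.6, scipy 1.17.1 and scikit-learn 1.9.0 were used. Some results on single genes are not reported here.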

Additional observations from a re-analysis of the deposited data

Results flagged for a closer look

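The genes below were called in opposite directions in different libraries. Differences between stages were not tested. All values are log2 ratios of members over comparators. Hba-x had 1.26 at E12.5 and -2.48, -3.73 and -3.99 at E11.5, E13.5 and E14.5. Hba-a1 had 1.17 at E12.5 and -2.55 and -2.77 at E11.5 and E13.5. Hba-a2 had 1.04 at E12.5 and -2.60 and -2.64 at E11.5 and E13.5. For these globin genes 1 member held 96.09%, 95.44% and 95.26% of the E12.5 members' UMIs.

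Taf7l, a germ cell gene, had 2.13 at E12.5 and -1.99 at E14.5. It was seen in 5 members at E12.5, and the highest 3 held 80% of its 35 UMIs. Phlda1 had -1.81 at E11.5 and 1.61 at E14.5. It was seen in 34 and 29 members, and the highest member held 20.21% and 8.642% of its UMIs, a smaller part than for the globins at E12.5. Between E11.5 and E14.5 the log2 change of Phlda1 was 0.84 in members, not called, and -2.58 in comparators. The larger change was therefore in the comparators.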

How the results depend on the processing

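Members and comparators were compared within each library throughout, with no test. For the stages, no paired analysis was possible because each had 1 library. Asking for 2 Pax8 UMIs changed the members' share of cells to 1.119%, 1.177%, 1.301% and 0.4805% in stage order, applying the rule to thinned cells to 0.5085%, 0.6609%, 0.9294% and 0.3133%, and allowing no germ cell gene to 1.607%, 1.673%, 1.9% and 0.5431%. With no CPM minimum 186 genes were called higher and 74 lower in place of 95 and 30, and 12 list genes higher in place of 7. With 2 Pax8 UMIs 53 genes and 20 list genes were called lower, and between E14.5 and E11.5 182 were higher and 129 lower. With comparators limited in germ cell genes 6 list genes were lower in place of 11. The rule gene Dppa5a reversed there, from -2.612 to 0.062 on the log2 scale. The rule gene Mael, with 0 UMIs in E11.5 members and 1 in E14.5 members, went from -1.930 to 1.531. Both are germ cell genes that this limit on the comparators uses, so the limit itself fixes part of these changes. Unthinned Stra6 shares were 24.77%, 26.89%, 42.45% and 33.33%. Calls needed in all 3 remaining libraries when 1 was left out gave 53 to 69 genes higher, 9 to 21 lower, 4 to 6 list genes higher and 4 to 9 lower, fewer by construction. Of 50 named genes outside the rule that were called over the libraries, 0 changed sign under 7 alternatives each. Their choice by a ratio of at least 2 in at least 3 libraries left little room for a change of sign. Some of them lost their calls. With germ-limited comparators these were Ccnb2, Cenpf, Top2a, Hmgb2, Dppa3, Phlda2, Rhox9 and Utf1. With called doublets left out they were Dppa3, Phlda2, Rhox9, Utf1 and Hbb-y. Depth limits low genes such as Pax2 and Cdh16, which stay under the minimums of the rule of size.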
